A study of Homo sapiens with 35 samples.

Results

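The transcriptome of RPMI-8226 cells 6 days after a pulse of carfilzomib was set against that of the same line on day 0, before the drug. RPMI-8226 is an established human multiple myeloma line, a malignant plasma cell that makes immunoglobulin light chain. Carfilzomib is an irreversible inhibitor of the proteasome. The libraries were chosen by their labels alone, 5 labelled Day 6 and 5 labelled Day 0, which are 10 of the 35 libraries of a series with 5 libraries on each of days 0, 1, 2, 4, 6, 8 and 10. Both groups were RPMI-8226 cells without genetic modification. The day 6 cells had received 750 nM carfilzomib for 1 h on day 0 and were then kept in drug-free medium. The labels list carfilzomib for the day 0 libraries too, and the day 0 group is taken here as untreated because the study's methods place that collection before the pulse. The comparison asks how far the messenger RNA of the surviving cells still differed from its starting state.

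The day 6 cells were the survivors of the pulse and their progeny, and the cultures of all days were split from a single expanded culture by the study's methods, although a legend of the study calls the replicates independent experiments. If they were subcultures, p-values measure only the spread between subcultures. By the study's methods, cells were brought to a set density in fresh medium on day 0 and left to equilibrate before the drug. The medium was then exchanged at regular intervals, day 6 was collected just before an exchange, and cell density was readjusted from day 6 onward. Effects of the drug, of the age of the medium and of density therefore cannot be told apart in this comparison. In bulk RNA, fewer cells of a kind and less RNA per cell cannot be told apart either.

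The proteasome removes ubiquitin-tagged proteins, and plasma cells lean on it heavily because they fold and export large amounts of immunoglobulin. When it is blocked, cells raise proteasome subunits through the transcription factor NFE2L1, chaperones through heat shock factor, detoxifying enzymes through NFE2L2, and amino acid metabolism genes through ATF4. These programmes are known as the acute response to such inhibitors.

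The identity of the cells was checked first. Levels are given as CPM, that is counts scaled by the normalized size of each library. The myeloma and line markers were abundant: MAF, a transcription factor driven by a translocation in this line, had a mean of 1752 CPM on day 0 and 2201 CPM on day 6, and its target ITGB7, an integrin subunit, had 6886 and 8177 CPM. The memory B cell marker CD27 was near 0 on both days. Of markers of other cell types, the summed level of 8 T and NK cell genes ranged from 11.6 to 15 CPM on day 0 and from 13.4 to 19.3 CPM on day 6. The corresponding ranges were 6.61 to 8.66 and 10.2 to 14.4 CPM for 6 myeloid genes, 3.17 to 4.29 and 3.73 to 7.93 CPM for 6 stromal and endothelial genes, and 353 to 412 and 454 to 494 CPM for 8 epithelial and erythroid genes. Among these lists 1 T and NK, 2 myeloid, 1 stromal and 3 epithelial or erythroid members were higher on day 6 and none was lower; when the 10 libraries were left out in turn, 1 myeloid member was higher in 8 of the fits, all but those without day 6 replicate 2 or 5. The markers CD3D, COL3A1, VWF, KRT19 and HBB had no count on either day, and LYZ stood at a mean of 0.102 and 0.0824 CPM. Each list began with 8 genes. Genes without a count numbered 1 T and NK, 2 myeloid, 4 stromal and endothelial and 2 epithelial and erythroid. In the same order, 3, 1, 1 and 5 genes had a mean above 1 CPM over the 2 days. The epithelial sum came mostly from KRT18, which had 295 CPM on day 0, and from EPCAM. The part of other cells in the results was not tested.

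Protein-coding entries held 78.1 to 80.9% of all estimated counts on day 0 and 79.1 to 81.2% on day 6. Entries of all biotypes summed to between 6641766 and 9400769 counts per day 0 library and between 7823941 and 9744769 per day 6 library. The log2 CPM of libraries of the same day correlated at r = 0.972 to 0.980 across genes, which are not independent replicates. Estimated counts were tested with edgeR's quasi-likelihood test, and Q is the p-value adjusted over all transcripts tested. A protein-coding transcript, here the summed protein-coding transcripts of a gene symbol, was called deregulated at Q of at most 0.05 with a change of more than 2-fold. For members of gene lists Q of at most 0.05 alone was used.

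On day 6, 573 transcripts were higher and 634 lower than on day 0, out of 17999 tested, which is 3.18% and 3.52%, together 6.71%. At Q alone, 3143 (17.5%) were higher and 3066 (17%) lower, and the libraries of the 2 days did not overlap for 4452 transcripts (24.7%). The balance turned to 475 higher and 430 lower with a low-count filter, and to 652 and 561 with libraries scaled by their totals only. The median log2 fold change over all transcripts tested was 0. Over all transcripts tested the falls were the deeper side: 246 transcripts were at least 4-fold lower and 140 at least 4-fold higher. These 4-fold counts were made without the low-count filter, and the part of low-count entries in them was not tested. Genes of growth arrest, immediate-early transcription factors and interferon-stimulated genes had high shares of falls, and genes of mitosis, low oxygen, glucose use, homologous recombination and lipid synthesis had high shares of rises.

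**Figure D1:**
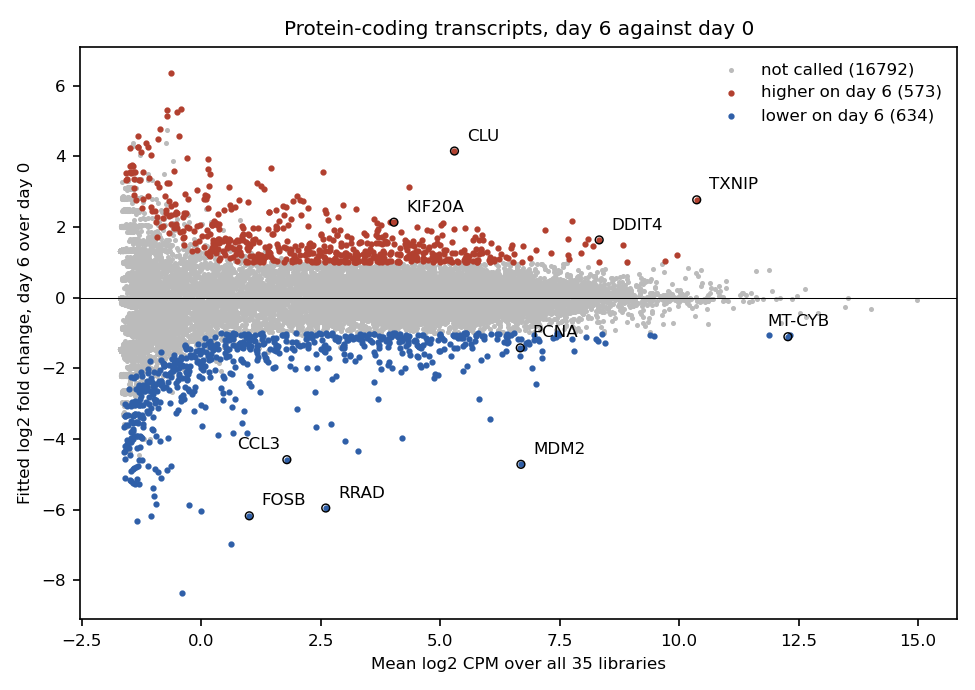
Fitted log2 fold change of each protein-coding transcript, day 6 over day 0 (vertical axis), against its mean log2 CPM over the libraries (horizontal axis). Coloured points are the 573 higher and 634 lower transcripts; the most strongly lower transcripts at moderate to high level include FOSB, RRAD and MDM2, and TXNIP (2.77) is the highest point to the right of a mean log2 CPM of 6.

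Gene lists were compared with these background shares. Most list members had enough counts for the low-count filter, and of the 12301 transcripts that pass it 24.8% were higher and 23.2% lower at Q alone, so both pairs of shares are used. The mitosis list stood farthest above, with 96.1% of its members higher, followed by hypoxia targets with 83.3% and glycolysis with 80.8%. All 13 mitochondrially encoded messenger RNAs were lower. The replication-dependent histone list, with 15.6% of members higher and 12.5% lower, lay near the share over all transcripts tested on both sides.

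**Figure D2:**
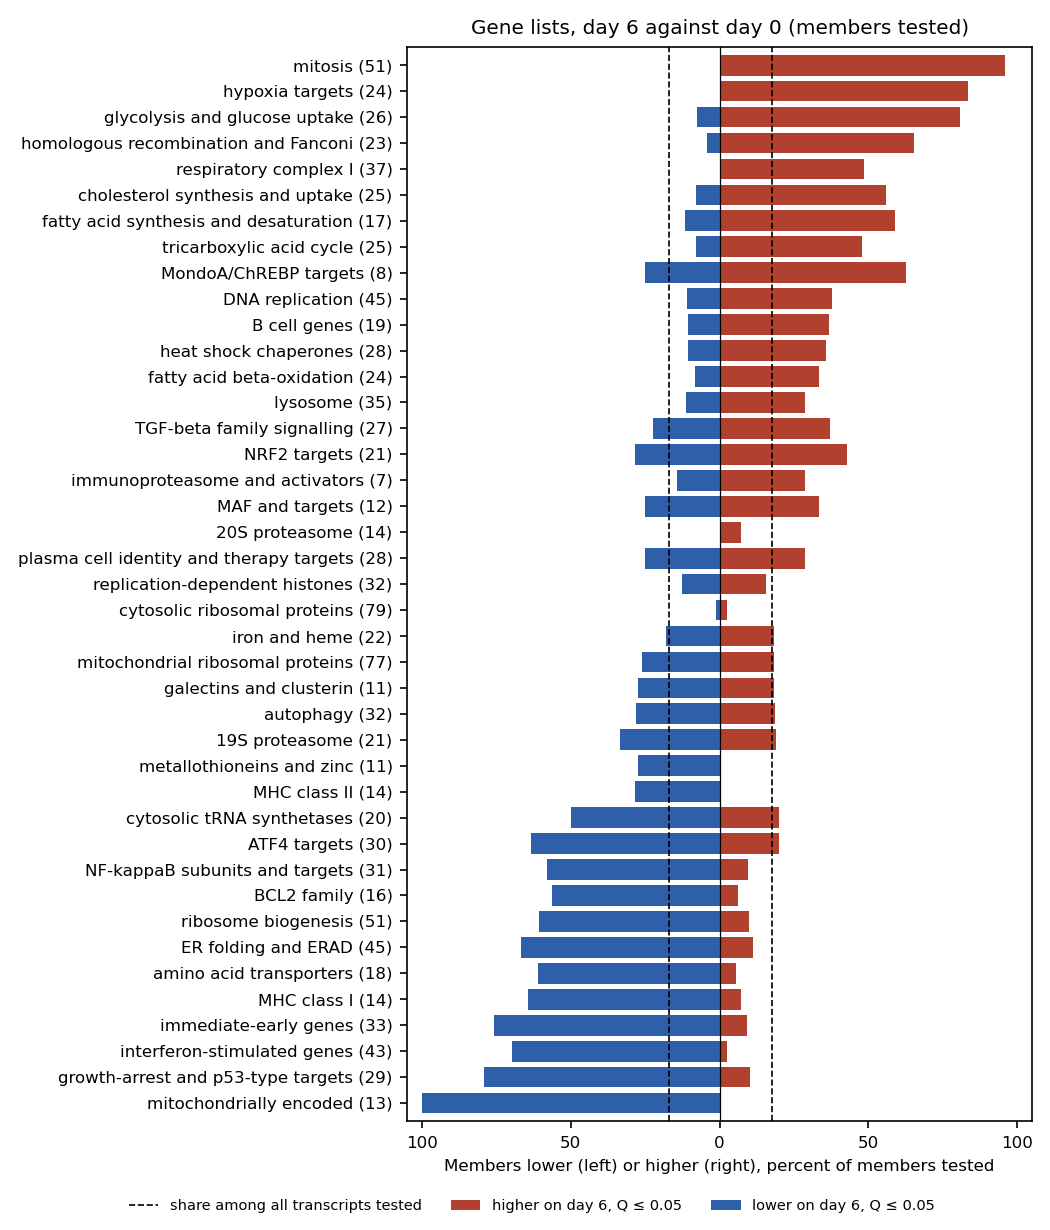
Share of the tested members of each gene list that were higher (red, to the right) or lower (blue, to the left) on day 6 at Q of at most 0.05, in percent. Numbers in brackets are members tested, and the dashed lines mark the shares over all transcripts tested, 17.5% higher and 17% lower; the mitosis list extends to 96.1% on the right and the mitochondrially encoded list to 100% on the left.

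Growth-arrest genes and genes of the type that p53 activates were lower. Of 29 members tested, 23 fell and 3 rose, 16 of the falls by more than 2-fold, and the median log2 fold change was -1.31. MDM2, the ubiquitin ligase that holds p53 down and is itself a p53 target, lies on chromosome 12 at 68808177 to 68845544 (GRCh38). Its level was 1818, 1633, 1936, 1642 and 1576 CPM in the day 0 libraries and 65.2, 70.5, 65.1, 66.2 and 59.7 CPM in the day 6 libraries. Every day 6 library was below every day 0 library, and the fall was 26.3-fold (log2 fold change -4.72, SE 0.08, Q = 9.37e-37). CDKN1A, the p21 inhibitor of cyclin-dependent kinases, was named after its values were seen: it went from 672, 505, 588, 493 and 471 CPM to 49.6, 51.5, 56.4, 40.8 and 55.1 CPM. The p21 transcript thus fell 10.8-fold, with no overlap between the days.

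RRAD, a small GTPase on chromosome 16 at 66921685 to 66925535, was among the most strongly changed transcripts at appreciable level. It had 198, 188, 201, 197 and 201 CPM on day 0 and 3.20, 1.97, 4.59, 3.96 and 2.15 CPM on day 6, a 62.1-fold fall (log2 -5.96, SE 0.16). TIGAR, a phosphatase that lowers flux through glycolysis, fell from 84.0 ± 5.49 CPM (SD, n = 5) to 4.10 ± 1.69 CPM. PHLDA3, an inhibitor of AKT signalling, had 746 counts over the day 0 libraries and 2 over those of day 6. Its ratio of CPM was 438, with a 95% counting interval of 121 to 3623. GDF15, a secreted stress cytokine, had 155 and 3 counts, a ratio of 60.7 (20.4 to 297). The death receptor FAS fell by 3.82 and the costimulatory ligand TNFSF9 by 3.67 on the log2 scale.

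A transcript beside MDM2 fell with it. The gene with the symbol CPM, which encodes the membrane enzyme carboxypeptidase M, had a mean normalized level of 10.3 CPM on day 0 and 0.685 CPM on day 6, a log2 fold change of -3.90. It lies at 68842197 to 68971570 on the opposite strand, so that its 3′ end overlaps that of MDM2. The kit marked strand, but the strand setting of the counting is not given in the sources used here, and reads of the shared stretch cannot be assigned with certainty.

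Other inhibitors of the cell cycle moved the other way. CDKN1C, the p57 inhibitor, rose from 22.1, 23.8, 14.3, 21.8 and 17.5 CPM to 84.8, 89.5, 86.0, 75.5 and 50.4 CPM. Its lowest day 6 library was above its highest day 0 library (log2 1.95, SE 0.14, Q = 1.26e-14). CDKN1B, the p27 inhibitor, rose by 1.16 on the log2 scale, and BTG2, an antiproliferative gene often induced by p53, by 0.61. The 3 inhibitors p21, p27 and p57 therefore did not move together.

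In the BCL2 family, which sets the threshold of apoptosis, 9 of 16 members fell and 1 rose. BBC3, a death-promoting member and p53 target that also stands in the growth-arrest list, fell by 1.96 on the log2 scale, from 137 ± 8.2 to 35.3 ± 3.81 CPM (SD, n = 5). Survival members were lower too: MCL1 fell by 0.69 and BCL2L1 by 0.66. HRK, a death-promoting member, was the single rise (log2 0.76).

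Immediate-early genes, which cells induce within minutes of growth factor or stress signals, were lower as a group. Of 33 tested, 25 fell, 17 of them by more than 2-fold, and 3 rose; the median was -1.21. FOSB, a subunit of the AP-1 transcription factor, had 79.0, 65.4, 78.5, 74.8 and 69.7 CPM on day 0 and 0.128, 1.22, 1.48, 0.587 and 1.72 CPM on day 6. The fall was 72.3-fold (log2 -6.18, SE 0.22, Q = 1.01e-24). The other AP-1 subunits FOSL1 and FOS fell by 4.05 and 3.57. The orphan nuclear receptor NR4A1 went from 276, 262, 255, 260 and 247 CPM to 15.2, 14.7, 17.5, 16.6 and 18.1 CPM, and the related NR4A3 fell by 3.84 on the log2 scale. The AP-1 and NR4A falls left no overlap between the days.

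KLF2, a transcription factor of quiescent lymphocytes, was a member that rose (log2 0.85). Its day 6 level was 123 CPM in replicate 5 and 61.5 to 73.0 CPM in the other 4 libraries, all above day 0. MYC, the growth regulator whose gene is rearranged in many myelomas, had 868 to 1107 CPM on day 0 and 1025 to 1121 CPM on day 6 (log2 0.13, Q = 0.0975). It passed the threshold without day 0 replicate 5 (0.18, Q = 0.0177) and when libraries were scaled by their totals only (0.18, Q = 0.00704).

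Subunits and targets of NF-κB, the survival pathway of myeloma cells, were mostly lower, with 18 of 31 members down and 3 up. The chemokine CCL3, which myeloma cells release, had 86.5, 63.3, 62.0, 55.9 and 47.4 CPM on day 0 and 1.66, 2.58, 3.93, 1.47 and 3.59 CPM on day 6, a log2 fold change of -4.59 (SE 0.25). The related chemokine CCL4 had 91 and 3 counts, a ratio of 35.6 (95% counting interval 11.8 to 176). NFKBIA, the inhibitor that NF-κB itself induces, fell from 152 ± 6.68 to 36.5 ± 3.57 CPM. Members that rose were LTB, a lymphotoxin subunit (log2 1.32), BIRC2, a ubiquitin ligase of the pathway (0.28), and the subunit NFKB1 (0.19).

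Interferon-stimulated genes, which encode antiviral proteins and are switched on through the interferon-stimulated response element (ISRE), fell with 30 of 43 members, 15 of them by more than 2-fold. Only BST2 rose among the 43, and 2 members without day 6 replicate 3. The response element has a repeated core, GAAA, any 2 bases and GAAA again, which was searched on both strands in the 250 bases before each RefSeq start. Of 32 members with a promoter in the table, 23 (71.9%) held it, against 3.6% of 13348 tested genes with a promoter and 3.02% of all 35116 promoters. The sequences of 3 promoters are shown because they carry the element and represent both directions of change. They are written 5′ to 3′ on the gene's strand up to the base before the start, from RefSeq on GRCh38.p14, with the matches in capitals. IFI44L lies on the plus strand at chr1:78620198-78620447, IFIT1 on the plus strand at chr10:89392373-89392622 with its matches on the opposite strand, and BST2 on the minus strand at chr19:17405631-17405880 with a pair of overlapping matches.
IFI44L: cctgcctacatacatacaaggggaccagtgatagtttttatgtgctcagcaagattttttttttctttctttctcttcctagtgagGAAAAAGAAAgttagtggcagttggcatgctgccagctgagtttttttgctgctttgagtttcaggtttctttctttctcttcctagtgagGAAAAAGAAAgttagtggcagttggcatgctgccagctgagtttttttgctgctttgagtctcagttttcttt
IFIT1: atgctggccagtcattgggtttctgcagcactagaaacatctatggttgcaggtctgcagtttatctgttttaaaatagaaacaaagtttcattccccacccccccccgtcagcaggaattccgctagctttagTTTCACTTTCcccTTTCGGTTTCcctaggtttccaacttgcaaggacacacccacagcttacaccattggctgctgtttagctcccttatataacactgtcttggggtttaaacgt
BST2: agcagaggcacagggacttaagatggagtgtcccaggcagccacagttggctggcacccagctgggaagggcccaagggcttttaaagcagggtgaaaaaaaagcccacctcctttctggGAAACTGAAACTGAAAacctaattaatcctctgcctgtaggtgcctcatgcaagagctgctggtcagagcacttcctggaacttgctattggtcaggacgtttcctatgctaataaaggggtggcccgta

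The levels of these genes differed in direction although all 3 promoters held the element. IFI44L, an interferon-induced protein of the cytoplasm, had 2.53, 3.65, 5.90, 2.40 and 3.27 CPM on day 0 and 0.512, 0.304, 0.328, 0.441 and 0.287 CPM on day 6 (log2 -3.17, SE 0.59, Q = 2.8e-05). IFIT1, which binds viral RNA and was named after its values were seen, had 3.38, 3.17, 3.93, 5.01 and 4.43 CPM on day 0 and 0.384, 0.608, 1.15, 0.294 and 0.287 CPM on day 6 (log2 -2.86, SE 0.42). BST2, or tetherin, which holds virus particles at the cell surface, had 186, 167, 160, 170 and 186 CPM and then 273, 300, 276, 266 and 270 CPM (log2 0.67, SE 0.06, Q = 2.03e-12). For none of them did the libraries of the 2 days overlap.

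Across the list, 19 of the 23 members with the element were called, with a median log2 fold change of -0.90. Of the 9 without it 5 were called, with a median of -0.43. OAS1, a sensor of double-stranded RNA, showed 0.19 with Q = 0.301. XAF1, an apoptosis regulator, fell by 3.54 and MX2, a GTPase against retroviruses, by 3.20 as protein-coding transcripts. Summed over all transcript types of the symbol they fell by 2.08 and showed -0.82, so part of these falls lay in the division between transcript types. Class I antigen presentation genes were lower in 9 of 14 members and higher in 1, with a median of -0.29. Class II genes were lower in 4 of 14 (28.6%), against 17% of all transcripts tested and 23.2% of those with enough counts for the filter. The count was 1 of 14 without day 0 replicate 4, without day 6 replicate 2 or without day 6 replicate 5. HLA genes share reads with each other, and their division between genes is uncertain.

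Mitosis was the most uniform of the rising groups. Of 51 members 49 rose, 28 of them by more than 2-fold, none fell, and the median was 1.04. The promoters of such genes carry the cell cycle homology region, written TTTGAA or TTTAAA, and CCAAT boxes. Among 44 members with a promoter, TTTGAA was present in 23 (52.3%, against 13.2% of tested genes and 13.3% of all promoters), TTTAAA in 13 (29.5%, against 11.7% and 11.3%), and CCAAT in 34 (77.3%, against 40.6% and 32%). The search covered both strands of the same 250 bases, and every member with a promoter was called. KIF20A and PLK1 are shown for the arrangement of these letters near the start, KIF20A on the plus strand at chr5:138178862-138179111 and PLK1 on the plus strand at chr16:23678639-23678888, with matches in capitals.
KIF20A: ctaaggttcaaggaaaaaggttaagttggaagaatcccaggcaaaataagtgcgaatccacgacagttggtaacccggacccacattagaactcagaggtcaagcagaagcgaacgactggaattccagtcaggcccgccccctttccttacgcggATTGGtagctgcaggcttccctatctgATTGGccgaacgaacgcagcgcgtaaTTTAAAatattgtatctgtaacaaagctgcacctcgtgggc
PLK1: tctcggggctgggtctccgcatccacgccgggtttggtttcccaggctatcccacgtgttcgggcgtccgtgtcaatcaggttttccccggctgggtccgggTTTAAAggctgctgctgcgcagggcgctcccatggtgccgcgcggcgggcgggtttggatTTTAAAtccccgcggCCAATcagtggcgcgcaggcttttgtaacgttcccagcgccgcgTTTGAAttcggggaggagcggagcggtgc

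The KIF20A window holds TTTAAA 41 bases before the start and CCAAT, read on the opposite strand, at 94 and 67 bases. The PLK1 window holds TTTGAA 29 bases before the start, TTTAAA at 148 and 88 bases and CCAAT at 73 bases. KIF20A, a kinesin of the dividing spindle, rose from 5.77, 4.6, 2.68, 4.41 and 3.08 CPM to 17.5, 18, 14.9, 19.5 and 22.1 CPM (log2 2.14, SE 0.15, Q = 8.31e-15). PLK1, a kinase that drives mitotic entry and exit, rose from 21.8, 17.3, 19.5, 12.8 and 20.4 CPM to 58.8, 65.8, 56.5, 54.0 and 71.2 CPM (log2 1.73, SE 0.11). Both left a wide gap between the days. CCNA2, the cyclin of S and G2 phase, rose by 1.70. BUB3, a checkpoint protein and a member that was not called, showed -0.10 with Q = 0.128.

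DNA replication genes were divided. Of 45 members 17 rose and 5 fell. RRM2, the regulated subunit of ribonucleotide reductase, and CDT1, which licenses origins, rose by 1.41 and 1.28. PCNA, the sliding clamp of the polymerases and also a gene that p53 activates, went the other way, from 157, 166, 161, 187 and 172 CPM to 57.6, 57.0, 62.8, 65.9 and 71.5 CPM (log2 -1.42, SE 0.07, Q = 1.17e-19). Its highest day 6 library was below its lowest day 0 library. RFC2, a subunit of the clamp loader, fell by 0.45.

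Homologous recombination and Fanconi anaemia genes, which repair broken and crosslinked DNA, rose in 15 of 23 members and fell in 1. RAD54L, a motor of strand exchange, rose from 6.61, 7.62, 8.04, 7.42 and 6.93 CPM to 23.4, 19.4, 20.8, 21.0 and 20.0 CPM (log2 1.52, SE 0.13, Q = 1.29e-12). Its day 6 libraries all stood above those of day 0, and its relative RAD54B rose by 1.47. Of 32 replication-dependent histone genes, 5 rose and 4 fell, near the share over all transcripts tested. HIST1H4E rose by 2.74 and HIST1H2BH by 2.04; their messages lack the usual poly(A) tail, and copies of one histone type share reads.

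**Figure D3:**
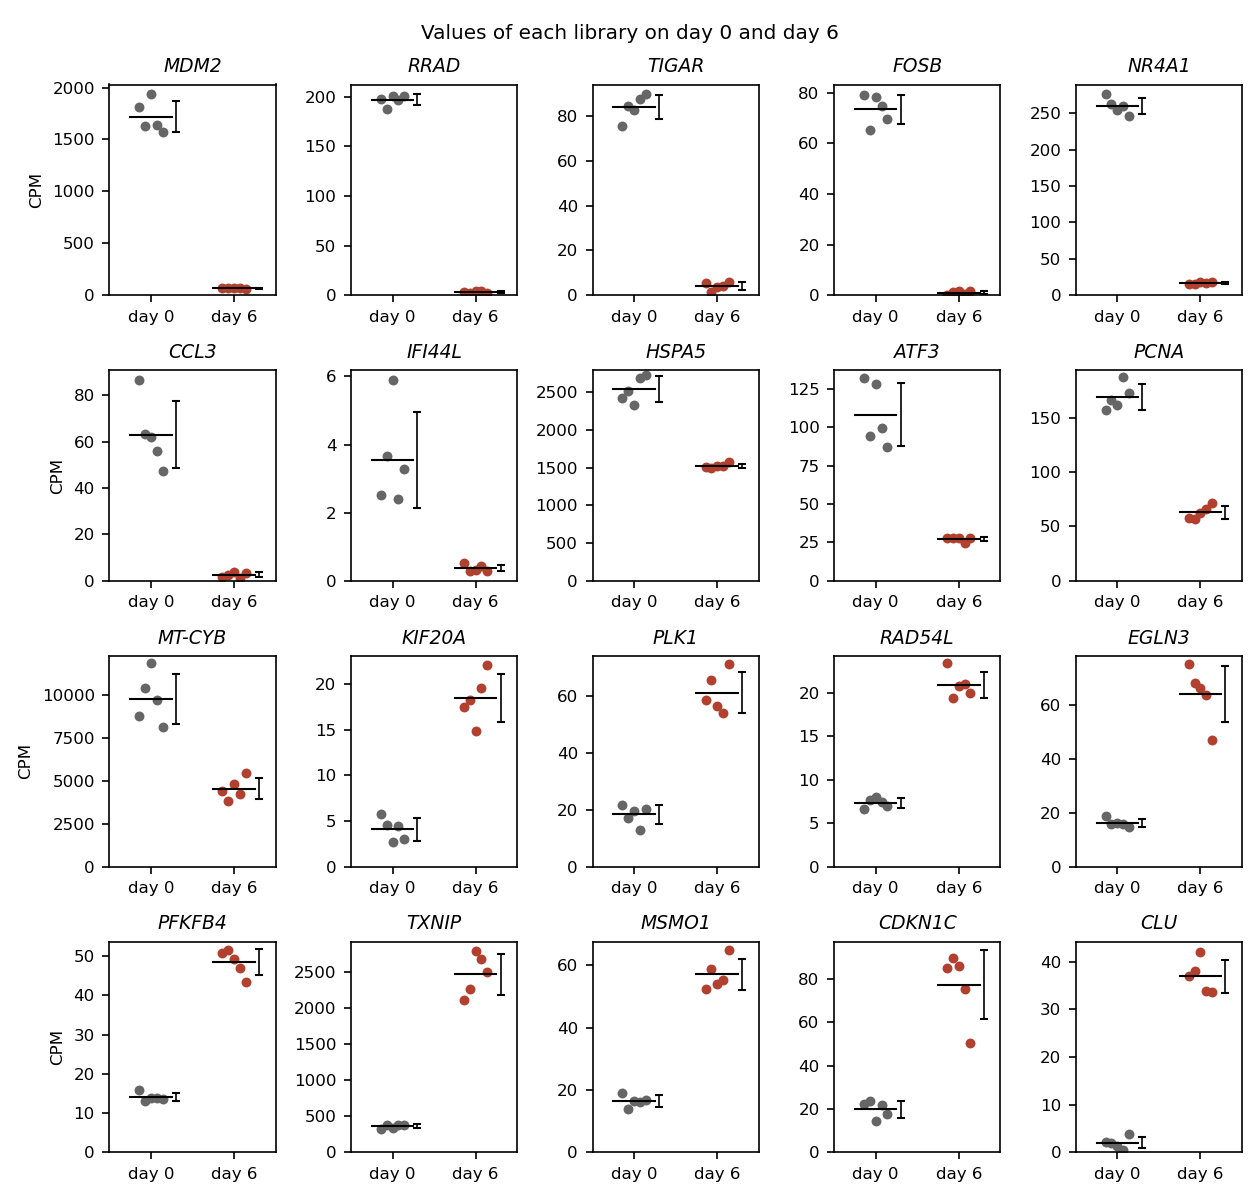
Level of 20 transcripts in each library, in CPM on a linear axis from 0, for the 5 day 0 and the 5 day 6 libraries of each. Points are libraries, horizontal lines the means and vertical bars the SD; MDM2 goes from 1576 to 1936 CPM down to 59.7 to 70.5 CPM, and TXNIP from 327 to 387 CPM up to 2110 to 2802 CPM.

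Targets of the hypoxia-inducible factors, which raise glucose uptake and glycolysis when oxygen is low, rose in 20 of 24 members and fell in none. The median was 0.68 and 9 members more than 2-fold higher. The factors bind the letters ACGTG, which 14 of 20 members with a promoter (70%) held in the 250 bases before the start on either strand, against 26.4% of tested genes and 18.5% of all promoters. The median was 0.64 for members with these letters and 1.41 for those without. BHLHE40 is shown because its window, on the plus strand at chr3:4979187-4979436, has several matches, a pair of which overlap as CACGTG.
BHLHE40: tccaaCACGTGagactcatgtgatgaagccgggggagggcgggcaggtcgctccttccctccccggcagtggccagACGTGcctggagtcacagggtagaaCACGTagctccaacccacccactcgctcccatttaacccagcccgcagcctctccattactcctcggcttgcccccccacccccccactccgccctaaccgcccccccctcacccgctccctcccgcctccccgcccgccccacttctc

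BHLHE40, a transcriptional repressor, rose from 48.7, 37.9, 44.5, 34.7 and 42.0 CPM to 160, 158, 117, 104 and 114 CPM (log2 1.65, SE 0.18). EGLN3, an oxygen-sensing hydroxylase that the factors induce, rose from 18.8, 15.9, 16.3, 15.8 and 14.6 CPM to 75.3, 68.4, 66.5, 63.9 and 47.2 CPM (log2 1.97, SE 0.18, Q = 8.92e-12). DDIT4, an inhibitor of mTORC1 that also stands in the ATF4 list, rose from 196 ± 12.7 to 610 ± 130 CPM (SD, n = 5).

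Glycolysis and glucose uptake genes rose in 21 of 26 members and fell in 2 (in 1 without day 0 replicate 2 or 5 or day 6 replicate 3, 4 or 5), with a median of 0.55; 4 genes stand in both this list and the hypoxia list. PFKFB4, which makes the activator of phosphofructokinase, rose from 14.1 ± 1.04 to 48.4 ± 3.32 CPM (SD, n = 5). The glucose transporters SLC2A3 and SLC2A1 rose by 1.15 and 0.63 and the aldolase ALDOC by 0.90. SLC16A1, a lactate transporter, fell by 0.37. TXNIP, an arrestin-like protein that restrains glucose uptake and that glucose induces through the transcription factor MondoA, rose from 327, 376, 338, 385 and 387 CPM to 2110, 2272, 2802, 2682 and 2502 CPM. This was 6.83-fold (log2 2.77, SE 0.09, Q = 2.36e-25), on chromosome 1 at 145992435 to 145996579, and the largest rise of those whose mean log2 CPM exceeded 6. Of 8 MondoA and ChREBP targets 5 rose and 2 fell. The relatives of TXNIP were not uniform, since ARRDC3 rose by 1.51 while ARRDC4 fell by 0.97 and ARRDC2 by 0.30.

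Nuclear genes of respiration moved upward by small amounts. Complex I genes rose in 18 of 37 members and fell in none (in 1 without day 6 replicate 5), with a median of 0.20; NDUFC1 rose by 0.85 and NDUFS7 by 0.55, and NDUFB8 showed 0.03 with Q = 0.803. Tricarboxylic acid cycle genes rose in 12 of 25 members and fell in 2. SDHA, a subunit of succinate dehydrogenase, rose by 0.69 and PC, which makes oxaloacetate from pyruvate, by 0.84, while IDH1, the cytosolic isocitrate dehydrogenase, fell by 0.67.

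The 13 messenger RNAs of the mitochondrial genome fell without exception, with a median of -0.56. MT-CYB, a subunit of complex III, had 8810, 10420, 11892, 9740 and 8130 CPM on day 0 and 4427, 3809, 4839, 4245 and 5458 CPM on day 6 (log2 -1.10, SE 0.11, Q = 1.76e-11). MT-ND1 and MT-ND2, subunits of complex I, each fell by 1.04. All 3 were below day 0 in every day 6 library. When 1 library was left out, 9 to 13 of the 13 passed the test. Together the mitochondrially encoded messages made up 6.71, 8.08, 9.28, 7.56 and 6.41% of all counts on day 0 and 5.32, 4.56, 6.06, 5.40 and 5.97% on day 6. The difference in their share, -2.15 percentage points, had an exact two-sided permutation p of 0.00794, the smallest that 5 against 5 libraries allow, and 0.0556 after adjustment over 7 shares.

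Lipid synthesis genes were higher. Cholesterol genes rose in 14 of 25 members and fell in 2. MSMO1, a sterol oxidase of the later steps, rose from 19, 13.8, 16.6, 16.0 and 16.9 CPM to 52.4, 58.8, 54.1, 55.2 and 65.1 CPM (log2 1.79, SE 0.09, Q = 1.75e-19), with no overlap. HMGCS1, near the start of the pathway, fell by 0.33 and SC5D by 0.40. Fatty acid synthesis and desaturation genes rose in 10 of 17 members and fell in 2; the desaturase FADS2 rose by 1.45 and GPAM, the first enzyme of glycerolipid synthesis, fell by 0.78. Of 24 genes of fatty acid oxidation 8 rose and 2 fell.

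Secretory pathway genes were lower by modest amounts. Of 45 genes of protein folding in the endoplasmic reticulum and of its associated degradation 30 fell and 5 rose, with a median of -0.25. HSPA5, the main chaperone of this compartment, fell from 2424, 2520, 2336, 2692 and 2730 CPM to 1506, 1497, 1518, 1524 and 1575 CPM (log2 -0.74, SE 0.05, Q = 3.82e-16). The day 6 libraries of HSPA5 lay close together and below all of day 0. SEL1L, the scaffold of the degradation complex, fell by 1.18, the oxidase ERO1B by 0.99, the chaperone HYOU1 by 0.80 and DNAJC3 by 0.42. DERL3 and MZB1, plasma cell genes of the same compartment, rose by 0.52 and 0.46, and ERO1A, an oxidase that hypoxia induces, by 0.44.

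ATF4 targets, which serve amino acid supply and the integrated stress response, fell in 19 of 30 members and rose in 6. ATF4 itself showed -0.06 with Q = 0.432, at 790 to 910 CPM on day 0 and 773 to 882 CPM on day 6. ATF3, a stress-induced repressor that is also an immediate-early gene, went from 132, 94.3, 128, 99.4 and 87.0 CPM to 28, 27.9, 28.2, 25 and 27.9 CPM (log2 -1.98, SE 0.12). PPP1R15A, which restores translation, fell by 1.39, SESN2 by 0.92, ASNS, the asparagine synthetase, by 0.86 and DDIT3, or CHOP, by 0.85. Members that rose included VLDLR, a lipoprotein receptor (1.29), NUPR1, a stress-induced chromatin protein (1.24), and CHAC1, which degrades glutathione (0.59). EIF2AK4 and EIF2AK3, kinases upstream of ATF4 in the fixed set of genes, fell by 0.41 and 0.55.

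Amino acid transporters fell in 11 of 18 members and rose in 1. SLC3A2, the shared chain of several exchangers, fell by 1.03, SLC7A11, the cystine exchanger, by 1.02, the glycine carrier SLC6A9 by 0.99, the cationic amino acid carrier SLC7A1 by 0.64 and the glutamine carrier SLC1A5 by 0.42. SLC38A2, a neutral amino acid transporter that starvation induces, was the rise (log2 0.58). Cytosolic tRNA synthetases fell in 10 of 20 members and rose in 4 (in 2 without day 0 replicate 1 and as symbol totals), the largest fall being that of WARS (log2 -1.23), from 347 ± 21.6 to 148 ± 10.5 CPM (SD, n = 5), ahead of SARS (-0.80) and MARS (-0.60).

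Genes that assemble ribosomes and genes of the ribosome itself differed. Ribosome biogenesis genes fell in 31 of 51 members and rose in 5, with a median of -0.33. NIP7 and RRP9, factors of subunit maturation, fell by 1.16 and 1.07. DDX56, a helicase of the same process, fell by 1.19 as a protein-coding transcript and by 0.49 as the total of its symbol. NPM1, an abundant nucleolar chaperone, rose by 0.28. Of 79 cytosolic ribosomal protein genes 2 rose and 1 fell, the latter count being 2 without day 0 replicate 3 or 5 and 0 without day 0 replicate 1, 2 or 4 or day 6 replicate 1, 4 or 5. RPL13A rose by 0.25, and these genes have many processed copies with which they can share reads. Mitochondrial ribosomal protein genes rose in 14 and fell in 20 of 77 (26%, against 23.2% of all transcripts with enough counts), and 13 fell without day 0 replicate 4. MRPS27 rose by 0.72 and MRPL27 fell by 0.76.

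The medians of the proteasome lists were near 0. Of 14 genes of the 20S core 1 rose (2 without day 0 replicate 2, 4 or 5 or day 6 replicate 1 or 3) and none fell, and of 21 genes of the 19S cap 4 rose and 7 fell, with medians of 0.02 and -0.05. PSMB5, the subunit that carfilzomib binds, had 56.7, 56.2, 44.5, 55.7 and 53.9 CPM on day 0 and 63.2, 67.4, 61.0, 60.2 and 65.1 CPM on day 6, a log2 fold change of 0.25 (SE 0.07, Q = 0.0042). PSMB3, another core subunit, showed 0.11 with Q = 0.306. In the cap, PSMD4, a ubiquitin receptor, rose by 0.30, and PSMC4, an ATPase, showed 0.12 with Q = 0.465 but fell by 0.32 as the total of its symbol. NFE2L1, the factor that induces proteasome genes, fell from 822, 823, 775, 818 and 827 CPM to 397, 424, 404, 402 and 425 CPM (log2 -0.99, SE 0.06). The libraries of NFE2L1 formed separate narrow groups on the 2 days. Of 7 immunoproteasome and activator genes 2 rose and 1, the activator PSME3, fell (log2 -0.88). A single gene rose without day 0 replicate 1, 4 or 5, without day 6 replicate 1, 4 or 5, with DESeq2 and with its size factors.

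Chaperones of the heat shock response rose in 10 of 28 members and fell in 3. CHORDC1, a cochaperone of HSP90, rose by 1.35 (0.67 as the total of its symbol) and DNAJB4 by 0.98, while DNAJB1 fell by 0.66 and HSPA1B by 0.59. HSPA1B has a near-identical copy, HSPA1A, and the division of reads between them is uncertain. NRF2 targets, which detoxify oxidants, rose in 9 of 21 members and fell in 6, with a median of 0.05. HMOX1, the haem-degrading enzyme, rose by 1.34 and TKT, transketolase, by 1.01, from 283 ± 9.89 to 567 ± 32.4 CPM (SD, n = 5), while OSGIN1, an oxidative stress growth inhibitor, fell by 1.38. NFE2L2, which encodes NRF2, showed -0.14 with Q = 0.178.

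Autophagy genes rose in 6 (18.8%) and fell in 9 (28.1%) of 32, and lysosome genes rose in 10 (28.6%) and fell in 4 (11.4%) of 35. Among all transcripts with enough counts for the filter, 24.8% rose and 23.2% fell. Iron and heme genes rose in 4 and fell in 4 of 22. The last count is near the 17.5% and 17% over all transcripts tested. With all transcript types of a symbol summed, 13 of the iron and heme genes were called instead of 8. Metallothionein and zinc genes fell in 3 of 11 (27.3%) and rose in none, against 17% lower over all transcripts tested and 23.2% with enough counts. Their median was 0.56 over the 11 and -0.82 over the 5 with enough counts for a low-count filter. The zinc exporter SLC30A1 fell by 1.27, from 158 ± 12.3 to 65.7 ± 7.52 CPM (SD, n = 5), the metal-sensing factor MTF1 by 0.84 and the metallothionein MT1X by 0.82.

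Of 28 plasma cell genes and therapy targets 8 rose and 7 fell (28.6% and 25%), close to the 24.8% and 23.2% of all transcripts with enough counts for the filter. SLAMF7 and SDC1, surface antigens of plasma cells, fell by 0.60 and 0.38. GPRC5D, a receptor used as a therapy target, rose from 3.38, 3.02, 3.57, 4.01 and 4.24 CPM to 5.37, 6.68, 7.21, 5.58 and 9.48 CPM (log2 0.92, SE 0.22). The plasma cell transcription factors, named after their values were seen, moved little: IRF4 showed 0.10 with Q = 0.231 and XBP1 fell by 0.17. Of 19 B cell genes 7 rose and 2 fell; CD79A, a chain of the B cell receptor, rose by 1.46, the complement receptor CR2 by 1.05 and PAX5, the B lineage factor, by 0.98. The level of PAX5 stayed low, at 0.963 to 2.25 CPM on day 0 and 2.29 to 4.6 CPM on day 6.

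MAF and its targets rose in 4 (33.3%) and fell in 3 (25%) of 12. Among all transcripts with enough counts for the filter, 24.8% rose and 23.2% fell. MAF rose by 0.33, ITGB7 by 0.25, S100A4, a calcium-binding protein, by 0.95 and the chemokine receptor CX3CR1 by 0.94. The cyclin CCND2, another target, fell from 1296, 1366, 1328, 1301 and 1322 CPM to 634, 608, 658, 625 and 608 CPM (log2 -1.08, SE 0.05, Q = 9.97e-22), so MAF and this target moved in opposite directions. CCND2 ends at position 4305353 on chromosome 12, beside TIGAR, which starts at 4307763 on the same strand and fell 20.1-fold.

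Among 27 genes of TGF-β family signalling 10 rose (37%) and 6 fell (22.2%), against 24.8% and 23.2% of all transcripts with enough counts. The ligand BMP7 rose by 1.27, TGFB1 by 0.62 and the receptor BMPR2 by 0.53; the repressor SKIL fell by 1.5 and the ligand INHBE by 1.06. LRRC32, which anchors latent TGF-β at the cell surface and stands outside the list, rose from 1.27, 0.635, 1.25, 1.00 and 0.770 CPM to 11.9, 10.2, 8.52, 10.9 and 6.61 CPM (log2 3.26, SE 0.38). Of 11 genes in the list of galectins and clusterin 2 rose and 3 fell, and 1 rose without day 0 replicate 2, 3 or 5, without day 6 replicate 2 and with only the 2 days fitted. CLU, which encodes the secreted chaperone clusterin, had 2.25, 2.06, 1.43, 0.601 and 3.85 CPM on day 0 and 37.0, 38.1, 42.1, 33.9 and 33.6 CPM on day 6. It had the highest fitted rise of the named protein-coding transcripts (log2 4.15, SE 0.19, Q = 5.37e-21), and its symbol total rose by 2.93.

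Several of the largest rises came from transcripts at low level on day 0. MYO7A, an unconventional myosin, rose from 0.768 ± 0.555 to 9.74 ± 1.72 CPM (SD, n = 5), ANGPTL4, an inhibitor of lipoprotein lipase, from 0.643 ± 0.864 to 8.44 ± 2.82 CPM, DUSP26, a phosphatase, from 0.222 ± 0.159 to 2.89 ± 0.588 CPM, and C1QA, a chain of complement C1q, from 0.466 ± 0.318 to 3.39 ± 0.875 CPM. CYP1A1, the cytochrome that the aryl hydrocarbon receptor induces, had 70.5, 77.0, 67.9 and 70.2 CPM in day 6 replicates 1 to 4 and 10.9 CPM in replicate 5, against 4.83 to 7.88 CPM on day 0. The scaffold protein SHANK1 rose by 3.08, the sialyltransferase ST6GALNAC5 by 3.66 and PRAMEF9, of a family of near-identical copies, by 3.16. LILRA5, a leukocyte receptor, rose from 2 to 46 counts over the 5 libraries, by a factor of 19.6 (95% counting interval 5.12 to 167). Over all alternative fits the lowest log2 fold changes were 2.02 for SHANK1, 1.80 for ST6GALNAC5, 2.38 for ANGPTL4 and 2.48 for LILRA5. Leaving out single libraries alone gave lows of 2.83, 3.31, 3.39 and 3.57 in that order. On the other side, the peptide hormone EDN2 fell by 3.63 and CALML3, a calmodulin-like protein, had 93 and 1 counts, a ratio of 109 (19.1 to 4359). SPP1, or osteopontin, an abundant secreted protein, rose from 127 ± 7.69 to 359 ± 70.4 CPM.

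The day 6 profile was set beside the other days, all compared with the same day 0 libraries. For days 1, 2, 4, 6, 8 and 10 in turn, the mitosis list had medians of 0.30, 2.13, 1.56, 1.04, 1.12 and 0.93. Hypoxia targets followed another course, with medians of 0.09, 0.00, 0.50, 0.68, 0.58 and 0.25. The 19S cap went from 1.91 a day after the pulse to -0.05 by day 6. ATF4 targets had medians of -1.81, -2.13, -1.11, -0.52, -0.96 and -0.36 on the 6 days. Against day 1 directly, 2208 transcripts (12.3%) were higher and 1236 (6.87%) lower on day 6 at more than 2-fold, together 19.1%. HMOX1, for example, stood at 187 ± 22.9 CPM a day after the pulse and at 10.0 ± 2.40 CPM by day 6 (SD, n = 5; log2 -4.22, Q = 1.39e-25), and OSGIN1 fell by 3.81.

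**Figure D4:**
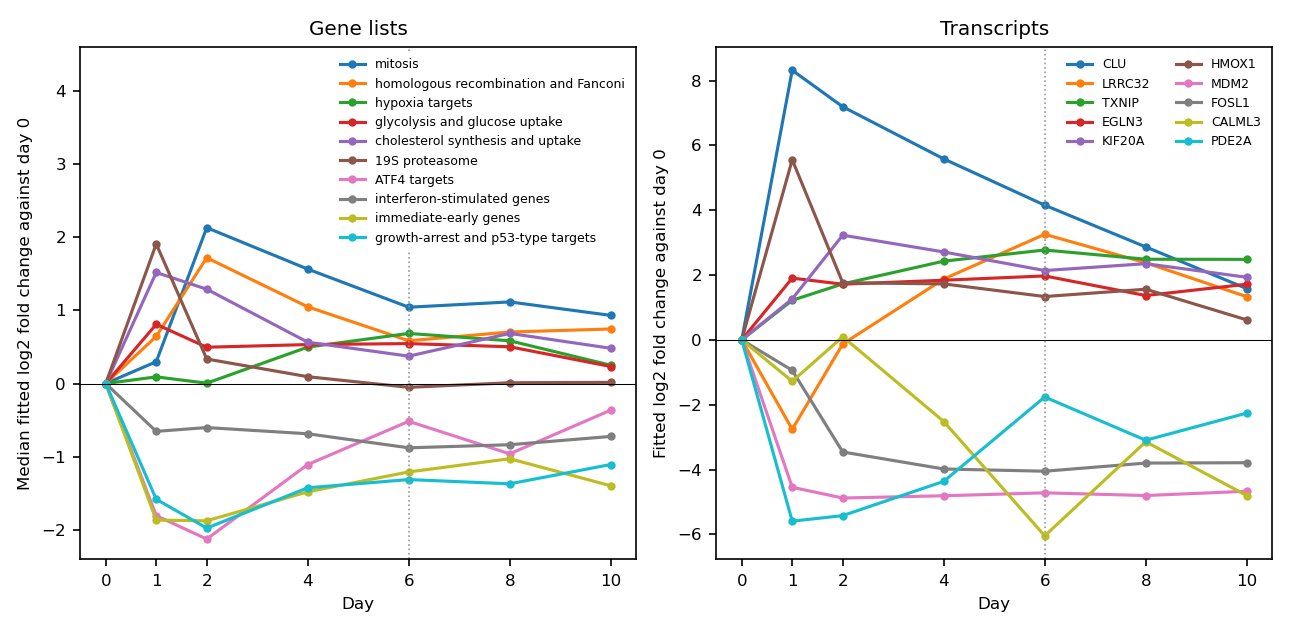
Fitted log2 fold change against day 0 on each day (horizontal axis, days), as the median of 10 gene lists (left) and for 10 transcripts (right), with the dotted line at day 6. All points share the day 0 libraries; CLU declines from day 1 to 1.58 on day 10, MDM2 stays near -4.7 from day 1 onward, and the 19S proteasome list returns to the line of no change.

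Few transcripts moved between day 4 and day 6. At more than 2-fold, 76 were higher (0.422%) and 37 lower (0.206%), together 0.628%, of which 67.3% were higher; with libraries scaled by their totals only, 54.5% of 110 were higher. PDE2A, which degrades cyclic nucleotides, went from 13.3 ± 2.69 CPM in the untreated cells to 0.620 ± 0.416 CPM by day 4 and 3.92 ± 0.877 CPM by day 6 (log2 2.60 from day 4, Q = 0.000117). The mucin MUC21 (2.58) and the calcium channel CACNA1F (2.39) rose in the same interval, both from below their day 0 level, as did CLEC3B, or tetranectin (3.38), and the readthrough entry CHURC1-FNTB (4.57), which shares its exons with neighbouring genes. CALML3 fell by 3.53, SECTM1, a ligand of CD7, by 1.68 and OLFML2B, an extracellular matrix protein, by 1.60. AUP1, a protein of lipid droplets, and the clone-named entry RP11-73M18.2 fell by 1.74 and 1.46. The symbol total of AUP1 was 168 CPM on both day 0 and day 6, so that its protein-coding entry varied while the total did not show a change against day 0.

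After day 6 the profile changed little. Between day 6 and day 8, 11 transcripts were higher and 12 lower (0.0611% and 0.0667%, together 0.128%), and between day 6 and day 10, 19 were higher (0.106%) and 58 lower (0.322%), together 0.428%. CLU continued downward, from 36.9 ± 3.48 CPM to 6.17 ± 1.42 CPM on day 10 (log2 -2.57, Q = 6.75e-16). LRRC32 fell by 1.92 and the metallothionein MT2A by 2.20, and the large secreted protein SSPO and VSIG10L, an immunoglobulin-domain protein, by 2.91 and 1.87. SPP1 rose by 1.06, the transcription factor LEF1 by 1.22, the acyl-CoA synthetase ACSM5 by 1.03 and AUP1 by 1.5. MDM2 stayed low, at 67.6 ± 9.63 CPM on day 10 against 65.3 ± 3.83 CPM on day 6 (log2 0.05, Q = 0.814).

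Counts were divided between transcript types of the same symbol, such as protein-coding and retained-intron transcripts, and a shift between types moves the protein-coding value. DDX5, an RNA helicase named after its values were seen, shows this. Its protein-coding entry went from 262, 396, 277, 314 and 381 CPM to 76.5, 60.9, 29.5, 84.6 and 46.7 CPM, a fall of 2.44 on the log2 scale. Its retained-intron entry had 408 CPM on day 0 and 540 CPM on day 6 (log2 0.40, Q = 0.0817), and the total of the symbol fell by 0.38. Of 902 deregulated transcripts with enough counts for the low-count filter, 763 were also deregulated in the same direction as totals, 8 had a total of the opposite sign and 25 had a total with Q above 0.05. The totals of MDM2, FOSB, NR4A1, KIF20A, PLK1 and TXNIP showed log2 fold changes of -4.69, -6.05, -3.90, 2.08, 1.57 and 2.79, against -4.72, -6.18, -3.98, 2.14, 1.73 and 2.77 for the protein-coding entries.

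**Figure D5:**
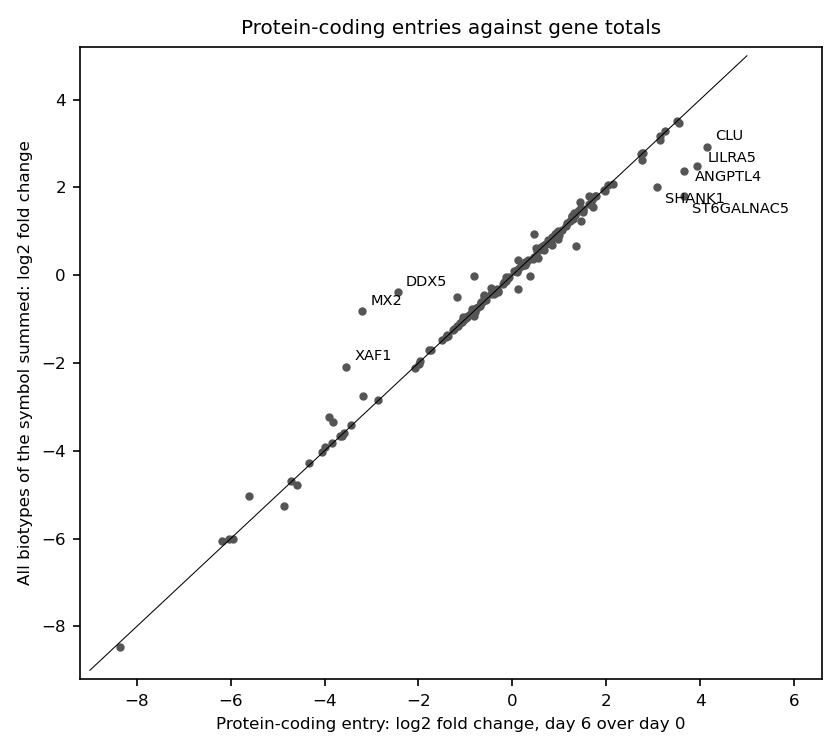
Log2 fold change of day 6 over day 0 for the named transcripts, from the protein-coding entry (horizontal axis) and from all transcript types of the symbol summed (vertical axis), with the line of equality. Most points lie on or close to the line; labelled symbols differ by more than 0.9, among them DDX5 (-2.44 and -0.38), MX2 (-3.20 and -0.82) and CLU (4.15 and 2.93).

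The shares of counts by transcript type differed less than these single genes. Retained-intron entries held 7.15 ± 0.574% of counts on day 0 and 6.5 ± 0.378% on day 6 (SD, n = 5; exact two-sided permutation p = 0.0635, 0.148 after adjustment over 7 shares). Long intergenic RNAs held 1.60 ± 0.211% and 1.92 ± 0.115% (exact permutation p = 0.0397, adjusted 0.139). The protein-coding share was 79.8% and 80.6% on average (exact permutation p = 0.254). The shares of nonsense-mediated decay transcripts (2.80 and 2.84%), processed transcripts (2.82 and 2.72%) and antisense RNAs (0.737 and 0.732%) had adjusted exact permutation p-values of 0.426, 0.426 and 0.889. No share passed the threshold after adjustment. Entry by entry, 402 of 47718 entries of other biotypes were higher (0.842%) and 840 lower (1.76%) on day 6, together 2.6%.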

How the data were processed

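Libraries of total RNA were made with the NEBNext Ultra II Directional kit. The authors deposited 1 table of estimated counts per gene symbol and transcript biotype for all 35 libraries, made with Kallisto 0.44.0 on GENCODE 28 (GRCh38.p12) with correction for GC bias, and summed with adjustment for transcript length, so that values are whole-number estimates and not read counts. The submitters' processing notes also name DESeq2 1.25.8 and R 3.5.0. No column of the table was left out.

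Entries of biotype protein_coding with at least 1 count (17999 of 19665) were fitted with edgeR 4.0.16 (R 4.3.3, TMM factors, quasi-likelihood test, day as a factor over all 35 libraries), with Benjamini-Hochberg adjustment. CPM were computed per TMM-normalized library size, and SE as the log2 fold change divided by the square root of F. The fit was tested on simulated data of 16592 genes, with day 6 simulated against day 0. Recovery meant Q of at most 0.05 in the right direction. It reached 94 of 100 genes with a 4-fold change and 69 of 100 with a 1.5-fold change. The changed genes were drawn only from those with a day 0 mean above 1 CPM, so recovery at lower levels was not tested. Of 16392 unchanged genes 1 was called at Q of at most 0.05 with a change of more than 2-fold. False calls at Q alone, the rule used for gene lists, were not counted. Entries of other biotypes were fitted separately. Shares were compared by exact permutation tests (scipy 1.17.1).

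Named genes were the 15 largest rises and falls whose libraries did not overlap, the 3 members at each end of a list, all members of lists of up to 12, a fixed set, and the 5 largest rises and falls between days 4 and 6, between days 6 and 10 and among other biotypes; not all are printed, and exceptions are marked. Members and lists were chosen with earlier results of these data known, lists from general knowledge. Gene positions are from GENCODE 44 (GRCh38), which matched 93.2% of tested symbols, and promoters from RefSeq. Alternatives were a low-count filter, other scalings, a replicate block, DESeq2 1.42.0, a fit of only the days compared, other fold thresholds, leaving out each library and, chosen after seeing the data, summing all biotypes of a symbol. Counting intervals cover counting error only.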

Additional observations from a re-analysis of the deposited data

Results flagged for a closer look

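Single libraries that stood apart from the other 4 of their day were found in 21 of 344 groups of libraries of the named transcripts, where about 17.2 are expected by chance at this threshold (1 in 20). On day 0 the lowest library was replicate 3 for ARRDC2 (49.0 CPM, others 53.7 to 55.5), PSMB5 (44.5, others 53.9 to 56.7), DNAJB1 (94.2, others 104 to 108), NFE2L1 (775, others 818 to 827), SPP1 (114, others 128 to 131), SDC1 (270, others 310 to 320) and ITGB7 (6001, others 7003 to 7326). The highest day 0 library was replicate 1 for PFKFB4 (15.9 CPM, others 13.2 to 13.9) and CHAC1 (17.4, others 13.6 to 14.6), and replicate 3 for ANGPTL4 (2.14, others 0 to 0.563). Day 6 replicate 5 was lowest for CYP1A1 (10.9 CPM, others 67.9 to 77.0), HMOX1 (5.74, others 10.7 to 11.5), SPP1 (237, others 362 to 402) and CD79A (2.44, others 3.71 to 4.11), and highest for KLF2 (123, others 61.5 to 73.0). On day 6 the highest library of EDN2 was replicate 1 (1.15 CPM, others 0 to 0.294), that of CALML3 replicate 1 (0.128, others 0) and that of SLAMF7 replicate 3 (20.2, others 14.2 to 15.7). The lowest day 6 library of ATF3 was replicate 4 (25 CPM, others 27.9 to 28.2), that of PC replicate 2 (6.84, others 8.90 to 9.72) and that of NFE2L2 replicate 3 (63.9, others 73.7 to 75.6).

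For 6 named transcripts the changes against day 0 on day 1 and day 6 were both more than 2-fold and had opposite signs. The direct contrast of the 2 days passed the threshold for each. It uses the same values by which the 6 were chosen, so it is not a separate test and its Q values only describe them. NUPR1 changed by -2.24 on day 1 and 1.24 on day 6, a difference of 3.48 (Q = 3.19e-11). LRRC32 changed by -2.76 and 3.26 (difference 6.02, Q = 3.07e-13), DUSP26 by -2.31 and 3.51 (5.81, Q = 7.00e-11), CD79A by -1.93 and 1.46 (3.39, Q = 2.33e-11) and HIST1H4E by -1.04 and 2.74 (3.78, Q = 1.85e-16). OSGIN1 went the other way, with 2.44 and -1.38 (difference -3.81, Q = 6.89e-19).

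Entries of other transcript types, outside the protein-coding comparison, held further changes, and the 5 largest in each direction are given. Both MDM2 entries fell like the protein-coding one, with log2 fold changes of -5.31 for the retained-intron entry (12.3 to 0.295 CPM) and -4.87 for the nonsense-mediated decay entry (18.9 to 0.642 CPM). The retained-intron entry of CCL3 changed by -5.57 (24.1 to 0.481 CPM) and the processed pseudogene RP11-611O2.3 by -4.98 (108 to 3.42 CPM). The nonsense-mediated decay entry of ABCC4, a transporter of nucleotides and drugs, had a fitted change of -7.50; it had 101 counts on day 0 and 0 on day 6, at least 39.5-fold lower by the floor of 3 counts over the group. The processed transcript of NSD3, a histone methyltransferase, had a fitted change of 7.40, with 0 and 109 counts, at least 30.9-fold higher by the same floor. The nonsense-mediated decay entry of WDHD1, a replication factor, had 1 and 95 counts (fitted 5.70, ratio 80.9, 95% counting interval 14.2 to 3229). Rises were 4.01 for the retained-intron entry RP11-54O7.3, 3.38 for the nonsense-mediated decay entry of APOL1 and 3.36 for the processed transcript of SPATS2.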

How the results depend on the processing

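Against day 0, 1207 transcripts were deregulated on day 6, and this count was 905 with the low-count filter, 1186 with DESeq2 size factors, 1213 with library totals only, 1134 with the replicate block, 1078 with DESeq2, 1187 with only the 2 days fitted, 1276 with symbol totals, and 1130 to 1167 without single libraries. It was 386 (140 higher, 246 lower) at a log2 fold change of at least 2, and 6209 (3143 higher, 3066 lower) with no fold threshold, where the threshold itself sets the count. Without day 6 replicate 2, 23 transcripts were lower than on day 4 in place of 37, and over all libraries left out this count ranged from 23 to 48; the cause was not tested. The 20S list had 2 members called with the filter, with only the 2 days fitted or with the replicate block, 3 with library totals only, and 1 to 2 without single libraries. Cytosolic ribosomal proteins had 6 with library totals only or with only the 2 days fitted, MHC class II had 1 with library totals only and 1 to 3 without single libraries, iron and heme had 13 with symbol totals, and the myeloid markers had 1 with DESeq2, the filter, the block, the 2 days or symbol totals and 1 to 2 without single libraries; the causes were not tested. The difference in the antisense share, -0.00442 percentage points, ranged from -0.0218 to 0.0171 percentage points without single libraries. Of 2924 recomputed values of 172 named transcripts, 2911 kept direction and side of Q of 0.05, and none moved from below that Q to above it. The 2-fold limit was not part of this tally. As symbol totals DDX5 (-0.38), MX2 (-0.82), DDX56 (-0.49) and CHORDC1 (0.67) fell short of 2-fold on the log2 scale. The sign against day 0 turned for transcripts not called there: PSMC4 (-0.32) and SSPO (-0.0191) as totals and, without single libraries, RP11-73M18.2 (-0.47 to 0.0488), CHURC1-FNTB (-0.61 to 0.0312), MT2A (-0.34 to 0.114) and VSIG10L (-0.0871 to 0.49). Beside MYC, CLEC3B passed the threshold as a total or with only the 2 days fitted, and LEF1 as a total. Replicate numbers of the 2 days showed no sign of pairing: same-numbered libraries had deviations correlated at r = -0.03 to 0.06, against -0.05 to 0.06 over all pairs. Of the day 6 libraries, 0 of 5 correlated best with their own number. With all of these correlations so small, the check cannot exclude that the libraries were paired. Low counts limit the single values of transcripts under 1 CPM.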

Other observations

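Immunoglobulin genes, the main product of plasma cells, lie outside the protein-coding comparison. Constant-region genes held 1.93 to 2.21% of all counts on day 0 and 1.65 to 1.88% on day 6, and variable-region genes 0.774 to 0.859% and 0.639 to 0.700%. The light chain constant gene IGLC2, chosen after its values were seen, had 23501 ± 1286 CPM on day 0 and 18688 ± 1177 CPM on day 6 (SD, n = 5; log2 -0.33, Q = 0.0019), and IGLC3 fell by 0.31 (Q = 0.00751). The libraries of the 2 days did not overlap in either share. The constant-region share was 1.14% on average on day 1 and 1.82% on day 10.

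Mitochondrial ribosomal RNA did not follow the mitochondrial messages. It held 0.913 to 1.26% of counts on day 0 and 1.14 to 1.45% on day 6. MT-RNR1, the small subunit RNA, rose by 0.43 (Q = 0.00701), and MT-RNR2, the large subunit RNA, showed 0.20 with Q = 0.149; both were chosen after their values were seen. Ribosomal RNA levels depend on how it was removed from each library, which is not given in the sources used here.

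Over all entries of other biotypes 0.842% were higher and 1.76% lower. Retained-intron entries had 145 higher (1.63%) and 439 lower (4.94%) of 8883 tested, above both shares. Processed transcripts, with 74 (0.731%) and 180 (1.78%) of 10124, stood near them, and nonsense-mediated decay entries, with 41 (0.649%) and 87 (1.38%) of 6322, below both. Long intergenic RNAs had 62 higher (1.11%) and 30 lower (0.535%) of 5604, and antisense RNAs 34 (0.73%) and 47 (1.01%) of 4660.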
